A study of Mus musculus with 16 samples.

Results

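The 10 genes described here are named in the literature for resident macrophages of the mouse peritoneal cavity: Prg4, Serpinb2, Cxcl13, Slpi, Saa3, Gata6, Icam2, Selp, Alox15 and F5. They were taken by gene symbol from 17097 genes measured on 16 Affymetrix perfect-match arrays, each gene by its probe set of highest mean over the 16. The samples were macrophages from fat of mice aged 19 to 21 weeks, isolated by collagenase digestion and CD11b beads, although another label names F4/80+ cells. Each array carried RNA of 300000 cells from 1 pool, copied by 24 cycles of cDNA amplification. The number of animals in a pool is not given, so p-values measure the spread between pools.

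There were 4 groups of 4 pools. KO VAT and KO SAT were macrophages of LysM-Sucnr1-/- mice from visceral and subcutaneous adipose tissue. WT VAT and WT SAT came from Sucnr1flox/flox mice, called wild type in the labels. Both genotypes thus carried the floxed alleles of Sucnr1, which encodes the succinate receptor. The knockouts also carried Cre driven by the promoter of the lysozyme M gene, active in myeloid cells at large and not in fat macrophages alone. The letters NCD in the labels of all groups are not spelled out there. Each of 2 days held 2 pools of every group, pools 1 and 2 on day 1 and pools 3 and 4 on day 2.

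Peritoneal macrophages include a large, long-lived resident population whose program depends on the transcription factor GATA6, which is in turn maintained by retinoic acid from the tissues lining the cavity. Many products of this program are secreted: a lubricating proteoglycan, a protease inhibitor, a B cell chemokine and an acute-phase protein stand beside surface adhesion molecules and a lipoxygenase. Visceral fat lies within the peritoneal lining and subcutaneous fat does not. None of the 10 genes is used by peritoneal macrophages alone: Gata6 and Slpi are also made by epithelia and mesothelium, Selp by platelets and endothelium, Icam2 by endothelium and Saa3 by fat cells.

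The depot labels need a remark before the results. Genes of the seminal vesicle, a gland beside the visceral fat of males, were measured by 8 of the 9 listed symbols. Their summed level (log2) ran from 8.38 to 8.79 in KO VAT, from 12.68 to 13.43 in KO SAT, from 8.54 to 9.73 in WT VAT and from 8.73 to 9.997 in WT SAT. All 8 fell in KO VAT against KO SAT, and Svs4, a seminal vesicle secretory protein, was at least 101-fold lower there, against the background level. In the wild type 0 of 8 passed between the depots. Outside KO SAT only 1 of the 8, Svs5, had group means above background, so the summed levels there are mostly Svs5. Svs4 reached 7.30 in WT SAT (median 3.98) and at most 3.88 in WT VAT. Svs6 reached 5.09 in WT SAT and at most 3.86 in WT VAT. Whether the depot labels of 1 genotype were exchanged was not tested, so the crossed pairs, KO SAT with WT VAT and KO VAT with WT SAT, are given beside the labelled ones. Sucnr1 itself lay between 3.35 and 3.65 on all arrays, below the background level defined next, and does not check the genotypes. Lyz2, the lysozyme M gene, averaged 9.99 in KO VAT, 10.48 in KO SAT, 10.57 in WT VAT and 11.12 in WT SAT.

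Values are log2 units of the authors' RMA summaries. The background level was 4.78, the 95th percentile of the mean values of 41 olfactory receptor genes. Among the 10 genes, Cxcl13, Slpi, Saa3, Gata6, Icam2 and Selp were above it on 16 of 16 arrays, Serpinb2 on 13 and Prg4 on 10, while Alox15 and F5 were above it on 0. A gene passed a comparison at a Benjamini-Hochberg adjusted p under 0.05 over all 17097 genes in a limma fit of all arrays with day as a term. In 5 of the 10, Prg4, Serpinb2, Cxcl13, Slpi and Saa3, the 2 highest group means were those of KO VAT and WT SAT. Gata6 had the opposite order, and of the remaining 4 none passed within a depot or within a genotype in this fit.

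Promoter sequences from RefSeq (GRCm38.p6) were at hand for 6 of the 10 genes. Of these, 4 are shown, those of the genes whose 2 highest group means were in KO VAT and WT SAT. Each is the 250 bases upstream of the annotated start, 5′ to 3′ on the strand of the gene. The windows are chr1:107511173-107511422 on the plus strand for Serpinb2 (the first of its 2 starts), chr5:95956689-95956938 on the plus strand for Cxcl13, chr2:164356508-164356757 on the minus strand for Slpi and chr7:46715677-46715926 on the minus strand for Saa3. Capitals mark matches on either strand to GATAA, a motif of GATA factors, to TATAAA, the TATA box, to TTNNGCAA, a motif of C/EBP factors, and to AGGTCA, a motif of nuclear receptors.
Serpinb2: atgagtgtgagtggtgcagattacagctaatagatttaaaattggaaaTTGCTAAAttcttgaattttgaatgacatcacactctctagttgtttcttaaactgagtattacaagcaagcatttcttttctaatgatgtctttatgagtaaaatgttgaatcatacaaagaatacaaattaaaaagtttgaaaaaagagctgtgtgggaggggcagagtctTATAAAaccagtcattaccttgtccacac
Cxcl13: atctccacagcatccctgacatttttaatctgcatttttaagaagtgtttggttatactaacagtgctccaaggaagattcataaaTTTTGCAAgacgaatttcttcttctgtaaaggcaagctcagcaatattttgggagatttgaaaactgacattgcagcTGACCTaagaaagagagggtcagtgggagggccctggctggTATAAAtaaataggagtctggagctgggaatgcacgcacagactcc
Slpi: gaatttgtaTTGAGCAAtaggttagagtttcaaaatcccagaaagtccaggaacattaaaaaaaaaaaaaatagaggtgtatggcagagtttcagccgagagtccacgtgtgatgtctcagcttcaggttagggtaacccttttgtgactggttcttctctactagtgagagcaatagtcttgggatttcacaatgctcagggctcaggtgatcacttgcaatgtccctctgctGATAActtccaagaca
Saa3: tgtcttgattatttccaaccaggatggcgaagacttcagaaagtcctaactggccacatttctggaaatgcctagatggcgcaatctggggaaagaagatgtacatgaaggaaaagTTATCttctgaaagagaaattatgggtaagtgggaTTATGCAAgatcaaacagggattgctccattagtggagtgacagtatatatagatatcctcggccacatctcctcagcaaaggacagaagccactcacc
TTNNGCAA occurred in all 4, from base -202 to -195 before the start of Serpinb2, -164 to -157 of Cxcl13, -241 to -234 of Slpi and -99 to -92 of Saa3. It occurred in 9.56% of 32851 promoter windows of the same length, and in neither the Selp nor the F5 window. GATAA was present in the Slpi and Saa3 windows, against 22.6% of all windows. TATAAA was present in those of Serpinb2 and Cxcl13, against 12.4%, and AGGTCA in that of Cxcl13 and in those of Selp and F5, against 14%. For Serpinb2 this counts the first start only. The window of its second start, not shown, held GATAA from -40 to -36, TATAAA from -116 to -111 and TTNNGCAA from -19 to -12. The motifs were chosen with the expression results known, and a match of letters is a description, not a site of binding.

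Prg4 and Serpinb2 stood out in KO VAT. Prg4 encodes lubricin, a mucin-like proteoglycan of joint and serosal surfaces, and lies at chr1:150449412-150466221. Its values on pools 1 to 4 were 7.43, 7.21, 7.67 and 7.34 in KO VAT, 4.64, 4.22, 4.43 and 4.91 in KO SAT, 4.41, 4.26, 5.17 and 4.84 in WT VAT, and 5.69, 4.91, 5.61 and 4.68 in WT SAT. All 4 KO VAT arrays lay above the other 12, which overlapped each other and the background level. In such bulk samples, fewer cells of a type and less RNA per cell cannot be told apart. Prg4 rose by 2.86 ± 0.23 (SE) in KO VAT against KO SAT (limma adjusted p = 1.93e-06) and by 2.74 ± 0.23 relative to WT VAT (limma adjusted p = 6.69e-06). Only 1 of 4 KO SAT arrays and 2 of 4 WT VAT arrays were above background, so against that level the differences were at least 6.06-fold and at least 5.72-fold. On day 1 and day 2 taken alone the change was 2.89 and 2.83 against KO SAT, and 2.98 and 2.49 against WT VAT.

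Serpinb2, which encodes plasminogen activator inhibitor 2, had 8.84, 8.38, 8.89 and 8.69 in KO VAT, 5.96, 4.71, 6.08 and 6.14 in KO SAT, 4.23, 4.99, 6.46 and 4.40 in WT VAT, and 6.64, 6.95, 7.17 and 5.42 in WT SAT. The KO VAT arrays were again apart from all others, while the other 3 groups overlapped and spread widely (SD 1.01 in WT VAT against 0.23 in KO VAT). It rose by 2.98 ± 0.46 in KO VAT against KO SAT (limma adjusted p = 0.00127) and by 3.68 ± 0.46 against WT VAT (limma adjusted p = 0.000193). The change against KO SAT was 3.28 on day 1 and 2.68 on day 2, where it did not pass (limma adjusted p = 0.129). Between the wild-type depots neither gene passed: the log2 change was -0.55 for Prg4 (95% interval -1.04 to -0.07, adjusted p = 0.265 by limma) and -1.52 for Serpinb2 (-2.49 to -0.55, adjusted p = 0.0988 by limma). With the spread of each array, its interquartile range, as a term both passed, Prg4 at -0.72 (limma adjusted p = 0.0285) and Serpinb2 at -1.90 (limma adjusted p = 0.00448). Serpinb2 also passed on day 1 alone (-2.18, limma adjusted p = 0.0446) and when pool 4 of WT SAT or pool 3 of WT VAT was left out.

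**Figure D1:**
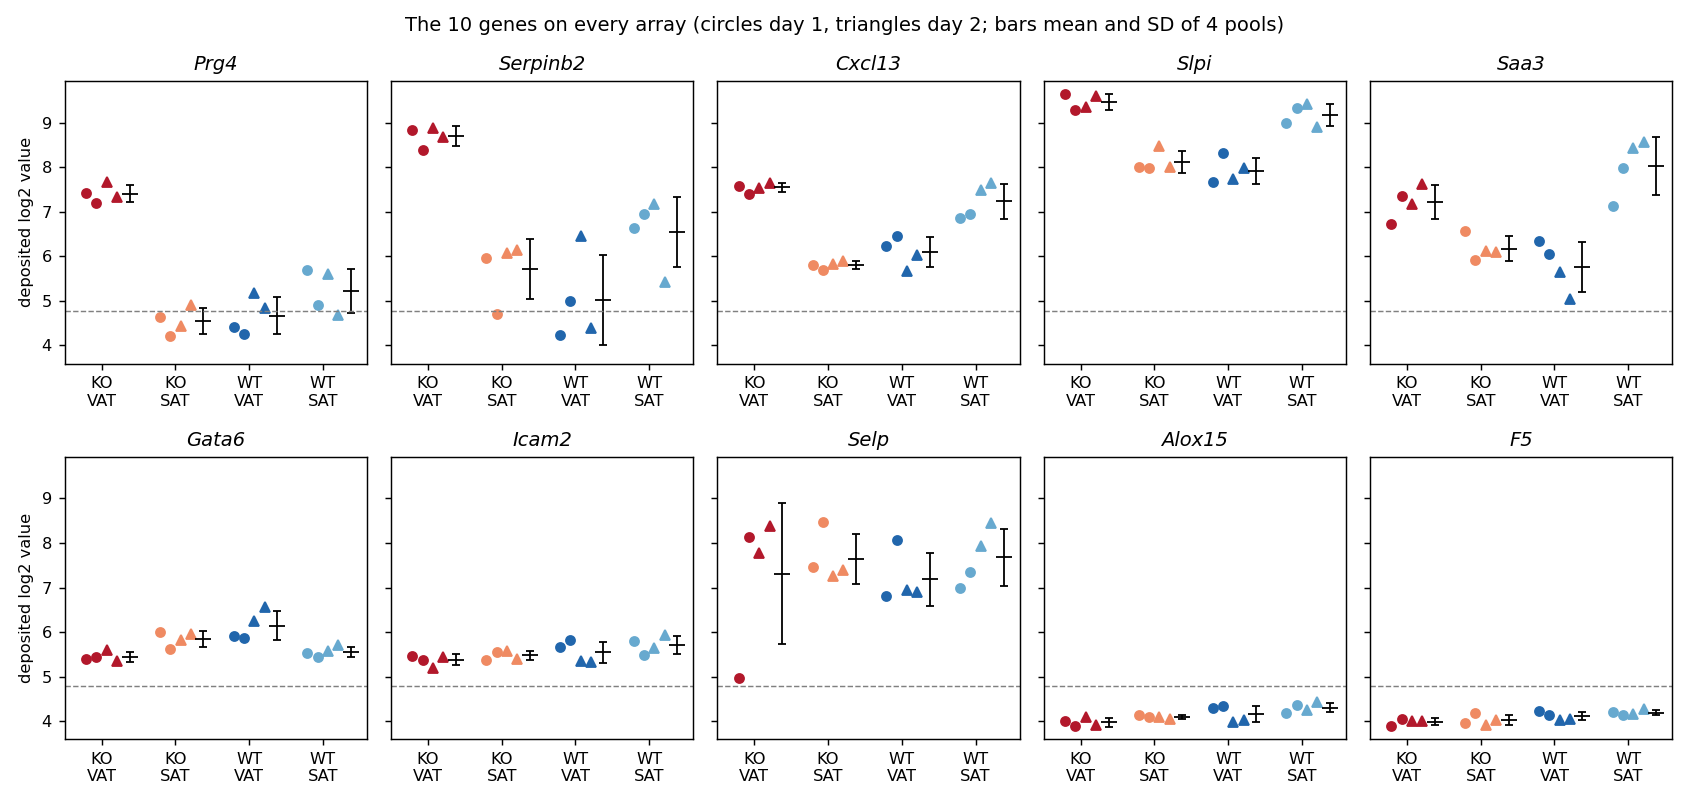
Deposited log2 values (y axis) of the 10 genes in the 4 groups (x axis), with circles for day 1, triangles for day 2, bars for the mean and SD of 4 pools, and a dashed line at the background level of 4.78. Prg4 and Serpinb2 are highest in KO VAT, while Cxcl13, Slpi and Saa3 are high in both KO VAT and WT SAT, and Alox15 and F5 stay below the line.

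Cxcl13, Slpi and Saa3 were high in 2 of the 4 groups. Cxcl13 encodes the chemokine that attracts B cells through CXCR5, made in the peritoneal cavity by macrophages and stromal cells. It had 7.59, 7.41, 7.53 and 7.66 in KO VAT, 5.81, 5.69, 5.84 and 5.91 in KO SAT, 6.23, 6.45, 5.66 and 6.03 in WT VAT, and 6.86, 6.95, 7.49 and 7.64 in WT SAT. No array of KO VAT or WT SAT was as low as any array of KO SAT or WT VAT. Cxcl13 rose by 1.74 ± 0.17 in KO VAT against KO SAT (limma adjusted p = 2.49e-05) and fell by 1.14 ± 0.17 in WT VAT against WT SAT (limma adjusted p = 0.0021). The wild-type change was -0.56 on day 1, where it did not pass (limma adjusted p = 0.0845), and -1.72 on day 2; in a fit of the 8 wild-type arrays alone it did not pass either (limma adjusted p = 0.124). A second Cxcl13 probe set, dimmer than the one used, correlated with it over the 16 arrays at r = 0.875.

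Slpi encodes secretory leukocyte protease inhibitor, which blocks neutrophil elastase. Its values were 9.64, 9.29, 9.34 and 9.61 in KO VAT, 8.00, 7.99, 8.48 and 8.00 in KO SAT, 7.67, 8.32, 7.73 and 7.98 in WT VAT, and 9.0001, 9.32, 9.43 and 8.92 in WT SAT. The same split held, with 8 arrays at or above 8.92 and 8 at or below 8.48. Slpi rose by 1.35 ± 0.16 in KO VAT against KO SAT (limma adjusted p = 0.000158) and fell by 1.24 ± 0.16 in WT VAT against WT SAT (limma adjusted p = 0.000678). Both changes were similar on the 2 days, at 1.47 and 1.24 in the knockout and -1.17 and -1.32 in the wild type, and the wild-type call held in the fit of wild-type arrays alone (limma adjusted p = 0.0408).

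Saa3, an acute-phase serum amyloid A protein of macrophages and fat cells, had 6.73, 7.36, 7.19 and 7.63 in KO VAT, 6.56, 5.91, 6.13 and 6.11 in KO SAT, 6.35, 6.05, 5.65 and 5.04 in WT VAT, and 7.13, 7.98, 8.42 and 8.57 in WT SAT. Here WT SAT was the highest group. Saa3 fell by 2.26 ± 0.32 in WT VAT against WT SAT (limma adjusted p = 0.00101), a change of -1.36 on day 1, where it did not pass (limma adjusted p = 0.094), and -3.15 on day 2. With the wild-type arrays alone it did not pass either (limma adjusted p = 0.0651). In KO VAT against KO SAT the groups did not overlap, but the change of 1.05 ± 0.32 did not pass (95% interval 0.38 to 1.72, limma adjusted p = 0.0839); it passed in a fit of the 8 knockout arrays alone (limma adjusted p = 0.00483), with array spread as a term (limma adjusted p = 0.00906), on day 2 alone (limma adjusted p = 0.0261), with the dimmest genes removed, and when pool 1 of WT SAT or pool 1 or 4 of WT VAT was left out.

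Gata6, the transcription factor of the large peritoneal macrophage, ran the other way. Its values were 5.39, 5.45, 5.603 and 5.34 in KO VAT, 5.99, 5.62, 5.81 and 5.95 in KO SAT, 5.90, 5.87, 6.25 and 6.56 in WT VAT, and 5.52, 5.43, 5.57 and 5.71 in WT SAT. KO VAT lay below KO SAT without overlap, and WT VAT above WT SAT. Gata6 rose by 0.59 ± 0.12 in WT VAT against WT SAT (limma adjusted p = 0.014), a change of 0.41 on day 1 and 0.77 on day 2 that did not pass with the wild-type arrays alone (limma adjusted p = 0.126), with no day term (limma adjusted p = 0.0503), without WT SAT pool 3 (limma adjusted p = 0.0531) or on day 1 alone (limma adjusted p = 0.186). In KO VAT against KO SAT it changed by -0.40 ± 0.12 and did not pass (95% interval -0.65 to -0.15, limma adjusted p = 0.0776). That change passed with the knockout arrays alone (limma adjusted p = 0.0206), with array spread as a term (limma adjusted p = 0.0227), under quantile normalization (limma adjusted p = 0.0417), with probe sets averaged and without WT VAT pool 4. A second Gata6 probe set correlated with the first at r = 0.444 only, and its group means were 5.31 in KO VAT, 5.69 in KO SAT, 5.53 in WT VAT and 5.30 in WT SAT.

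The adhesion genes and the enzymes did not follow either order. Icam2, an integrin ligand of endothelium and leukocytes, averaged 5.38 ± 0.12 (SD, n = 4) in KO VAT, 5.48 ± 0.10 in KO SAT, 5.55 ± 0.24 in WT VAT and 5.71 ± 0.20 in WT SAT. Its groups overlapped within each genotype, and the depot change was -0.10 (95% interval -0.36 to 0.16) in the knockout and -0.17 (-0.42 to 0.09) in the wild type. Selp, which encodes P-selectin, had 4.96, 8.13, 7.77 and 8.37 in KO VAT, 7.46, 8.48, 7.25 and 7.39 in KO SAT, 6.81, 8.07, 6.95 and 6.91 in WT VAT, and 6.98, 7.35, 7.94 and 8.44 in WT SAT. All groups overlapped, and KO VAT pool 1 lay far below the rest; without it the knockout depot change, -0.34 with all arrays (95% interval -1.61 to 0.93), was 0.46. Cdh5, the cadherin of endothelium, was also lowest on that array, at 5.59, beside a KO VAT median of 7.73 and a range of 7.05 to 8.85 in WT VAT. The summed level of 14 endothelial genes, Cdh5 among them, was 9.22 on that array and 9.75 to 10.35 on the other KO VAT arrays. Other genes of that list varied less over the KO VAT arrays, with Vwf from 5.50 to 5.64 and Kdr from 7.27 to 8.03. On day 2 alone Selp passed in 4 comparisons, at -1.26 in WT VAT against WT SAT (limma adjusted p = 0.00701), 1.15 in KO VAT against WT VAT (limma adjusted p = 0.0399), -0.87 in KO SAT against WT SAT (limma adjusted p = 0.017) and 2.02 in the difference of knockout effects (limma adjusted p = 0.00761). On day 1 the sign was the opposite in each of these and none passed. KO VAT pool 1 is a day 1 array, but it enters only KO VAT against WT VAT and the difference of knockout effects. The day 1 change without any KO VAT array was 0.28 in WT VAT against WT SAT and 0.81 in KO SAT against WT SAT. A second Selp probe set, dimmer than the one used, correlated with it at r = 0.739. Its group means were 6.33 in KO VAT, 5.89 in KO SAT, 5.37 in WT VAT and 5.35 in WT SAT. The part of endothelial cells in the Selp values was not tested.

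Alox15, the 12/15-lipoxygenase of resident peritoneal macrophages, ran from 3.89 to 4.42 over the 16 arrays, and F5, coagulation factor V, from 3.89 to 4.27. Neither was well above background in any group. On day 1 alone Alox15 passed in KO VAT against WT VAT (-0.37, limma adjusted p = 0.0449), and on day 2 its change was 0.003. F5 lies at chr1:164151835-164220277, 1808 bases beyond the end of Selp with 0 genes between them, and Selp was above background on all 16 arrays.

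Set against all genes, 4 of the 10 rose and 0 fell in KO VAT against KO SAT (Prg4, Serpinb2, Cxcl13 and Slpi), where 1.92% of all genes rose and 2.39% fell. Between WT VAT and WT SAT, 1 rose (Gata6) and 3 fell (Cxcl13, Slpi and Saa3), where 1.52% of all genes rose and 1.32% fell. The median log2 change of the 10 genes was 0.51 in the knockout and -0.52 in the wild type, beside 0.0024 and -0.019 for all genes. With the 8 wild-type arrays alone, 1 of the 10 passed, Slpi.

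**Figure D2:**
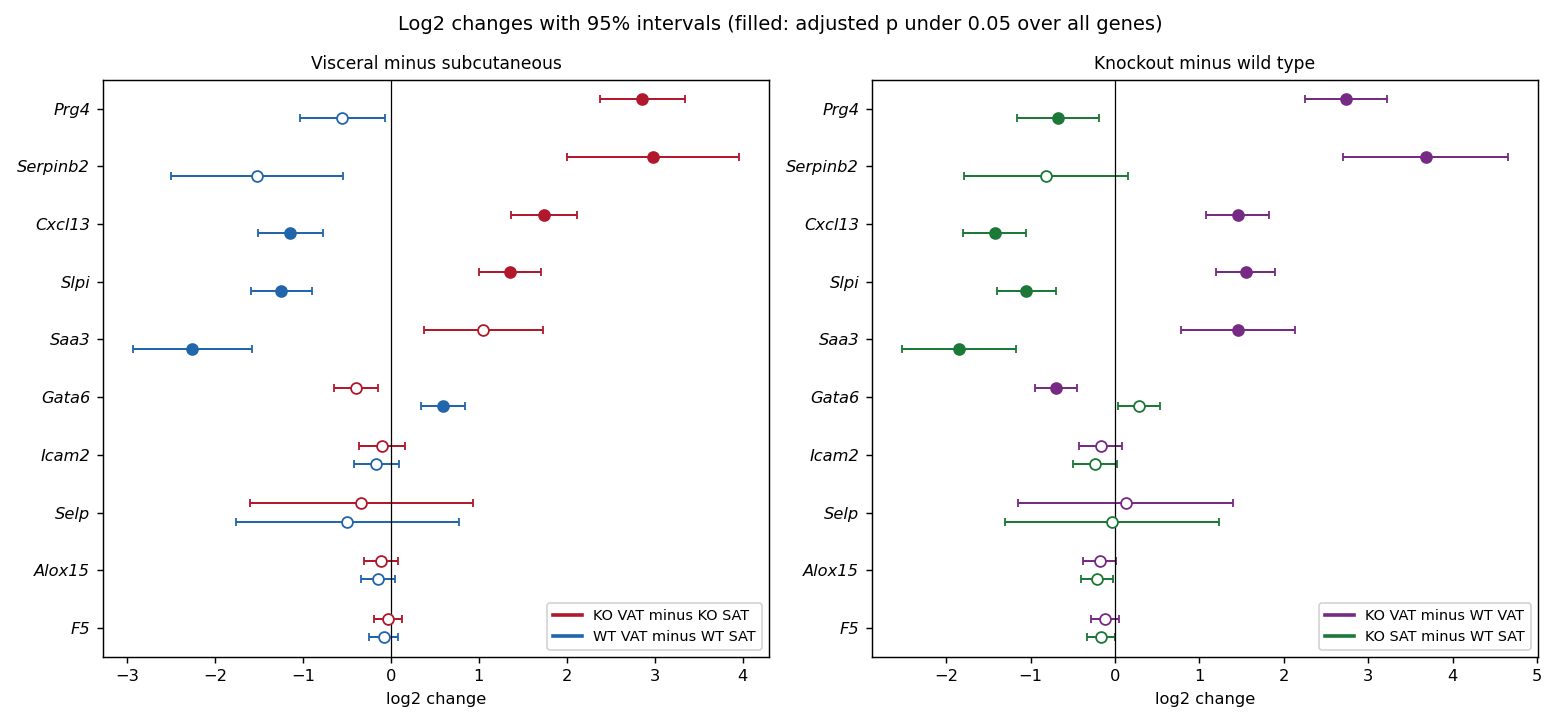
Log2 changes (x axis) of the 10 genes (y axis) with 95% intervals from the fit, VAT minus SAT in each genotype on the left and KO minus WT in each depot on the right; filled points have an adjusted p under 0.05. Prg4, Serpinb2, Cxcl13, Slpi and Saa3 lie right of 0 in KO VAT minus KO SAT and left of 0 in WT VAT minus WT SAT, and Gata6 the reverse.

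The comparison of genotypes asks what loss of the succinate receptor in myeloid cells changes in each depot. In visceral fat, KO VAT against WT VAT, 5 of the 10 rose and 1 fell, where 10.2% of all genes rose and 5.76% fell. Beside Prg4 and Serpinb2 above, Cxcl13 rose by 1.45 ± 0.17 (limma adjusted p = 0.000156), Slpi by 1.55 ± 0.16 (limma adjusted p = 5.6e-05) and Saa3 by 1.46 ± 0.32 (limma adjusted p = 0.00882), while Gata6 fell by 0.70 ± 0.12 (limma adjusted p = 0.00179). All 6 separated the 2 groups without overlap. How many of all genes also did so was not counted, here or in the other comparisons, so this describes the values only. Day 1 and day 2 alone gave 1.16 and 1.75 for Cxcl13, 1.47 and 1.62 for Slpi, 0.85 and 2.06 for Saa3, and -0.47 and -0.93 for Gata6; Saa3 did not pass on day 1 (limma adjusted p = 0.075).

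In subcutaneous fat, KO SAT against WT SAT, 0 of the 10 rose and 4 fell, where 16.7% of all genes rose and 20% fell. Cxcl13 fell by 1.42 ± 0.17 (limma adjusted p = 0.000144), Slpi by 1.05 ± 0.16 (limma adjusted p = 0.000819) and Saa3 by 1.85 ± 0.32 (limma adjusted p = 0.0013), each without overlap between the groups. On day 1 alone Saa3 changed by -1.32 and did not pass (limma adjusted p = 0.0635). Prg4 fell by 0.67 ± 0.23 (limma adjusted p = 0.0332) with overlapping arrays and a KO SAT mean below background, so that against that level the difference was at least 1.33-fold. This call was lost on either day alone, with no day term (limma adjusted p = 0.0559), under quantile normalization (-0.53, limma adjusted p = 0.146), without WT SAT pool 1 or 3 and without KO SAT pool 2 or 3, where the change lay between -0.46 and -0.59 with 1 array left out. For Serpinb2 the change was -0.82 (95% interval -1.80 to 0.15), but -2.04 with array spread as a term, where it passed (limma adjusted p = 0.0307), as it did without WT SAT pool 4. Gata6 changed by 0.29 (limma adjusted p = 0.0653) and passed with the subcutaneous arrays alone (limma adjusted p = 0.0411), under quantile normalization (limma adjusted p = 0.0256), with probe sets averaged and without WT VAT pool 4. Icam2 passed as lower without WT SAT pool 2 and Alox15 without WT SAT pool 1. The 4 falls are a share of the 10 that should be read beside 20% of all genes. The arrays also differed in spread: the interquartile range of all values on an array averaged 2.49 ± 0.11 (SD, n = 4) in KO VAT, 2.52 ± 0.13 in KO SAT, 2.30 ± 0.26 in WT VAT and 2.20 ± 0.08 in WT SAT. WT VAT was itself split by day, at 2.01 and 2.15 on day 1 and 2.504 and 2.54 on day 2, the last pair inside the range of KO VAT. With that range as a term, Saa3 in KO SAT against WT SAT changed by -0.90 and did not pass (limma adjusted p = 0.134).

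The difference of knockout effects, that in VAT minus that in SAT and so also the difference between the 2 depot effects, passed for 6 of the 10. It was positive for 5 and negative for 1, where 2.1% of all genes passed as positive and 2.12% as negative. It was 3.41 ± 0.32 for Prg4 (limma adjusted p = 1.02e-05), 4.50 ± 0.65 for Serpinb2 (limma adjusted p = 0.000629) and 2.88 ± 0.25 for Cxcl13 (limma adjusted p = 3.73e-06). For Slpi it was 2.60 ± 0.23 (limma adjusted p = 5.88e-06), for Saa3 3.31 ± 0.45 (limma adjusted p = 0.000356) and for Gata6 -0.99 ± 0.17 (limma adjusted p = 0.00216). The same 6 signs held on each day alone, with Saa3 (limma adjusted p = 0.0577) and Gata6 (limma adjusted p = 0.0991) not passing on day 1. Over the 10 genes the median was 1.38, beside 0.020 for all genes. For Icam2, Selp, Alox15 and F5 the 95% intervals spanned 0, widest for Selp (-1.64 to 1.95), which passed on day 2 alone as given above.

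In the first crossed pair, KO SAT against WT VAT, 0 of the 10 passed in the limma fit, where 4.71% of all genes were higher and 2.18% lower; 1 of the 10, Gata6, had an unadjusted p under 0.05 (0.0214), and on day 1 alone 1 passed, Cxcl13 at -0.59 (limma adjusted p = 0.0206). The intervals were -0.61 to 0.36 for Prg4, -0.27 to 1.67 for Serpinb2, -0.66 to 0.09 for Cxcl13, -0.16 to 0.55 for Slpi, and -0.27 to 1.08 for Saa3. They still allow differences of some size, so the groups are not shown to be alike.

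In KO VAT against WT SAT, 2 of the 10 rose and 2 fell, where 18.3% of all genes rose and 21% fell. Prg4 rose by 2.19 ± 0.23 (limma adjusted p = 4.27e-05), 2.02 on day 1 and 2.36 on day 2, and Serpinb2 by 2.16 ± 0.46 (limma adjusted p = 0.00325), 1.82 and 2.50 on the 2 days. With the spread of each array as a term, Serpinb2 changed by 1.04 and did not pass (limma adjusted p = 0.237). Icam2 fell by 0.34 ± 0.12 (limma adjusted p = 0.0383). With array spread as a term its change was -0.0013 (limma adjusted p = 0.996). The call was also lost on day 1 alone (limma adjusted p = 0.36), under quantile normalization (limma adjusted p = 0.082), with no day term or with pool number as a replicate block (limma adjusted p = 0.0547 in both) and without any of WT SAT pools 1, 3 and 4 or KO VAT pools 1, 2 and 3. Alox15 fell by 0.33 ± 0.09 (limma adjusted p = 0.0132) at values below background in both groups, for which no fold is given. It did not pass on day 1 alone (limma adjusted p = 0.117), on day 2 alone (limma adjusted p = 0.0535), with array spread as a term (-0.19, limma adjusted p = 0.375) or under quantile normalization (-0.17, limma adjusted p = 0.105). Cxcl13 and Slpi did not pass, with intervals of -0.06 to 0.69 and -0.05 to 0.65. Cxcl13 did pass on day 1 alone (0.60, limma adjusted p = 0.027) and with array spread as a term, where its change was 0.77 (limma adjusted p = 0.0146) beside 0.31 without it. F5, below background, changed by -0.20 (limma adjusted p = 0.0502) and passed with probe sets averaged and without WT SAT pool 2, WT VAT pool 1 or KO SAT pool 2. Saa3 changed by -0.80 (95% interval -1.47 to -0.13, limma adjusted p = 0.0562), and its mean, alone among the 5, was higher in WT SAT than in KO VAT. It passed with these groups alone (limma adjusted p = 0.0132), on day 2 alone (-1.09, limma adjusted p = 0.00721), under quantile normalization (-1.06, limma adjusted p = 0.0258), with the dimmest genes removed, and when pool 1 of WT SAT or pool 1 or 4 of WT VAT was left out, but with array spread as a term its change was 0.0749.

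**Figure D3:**
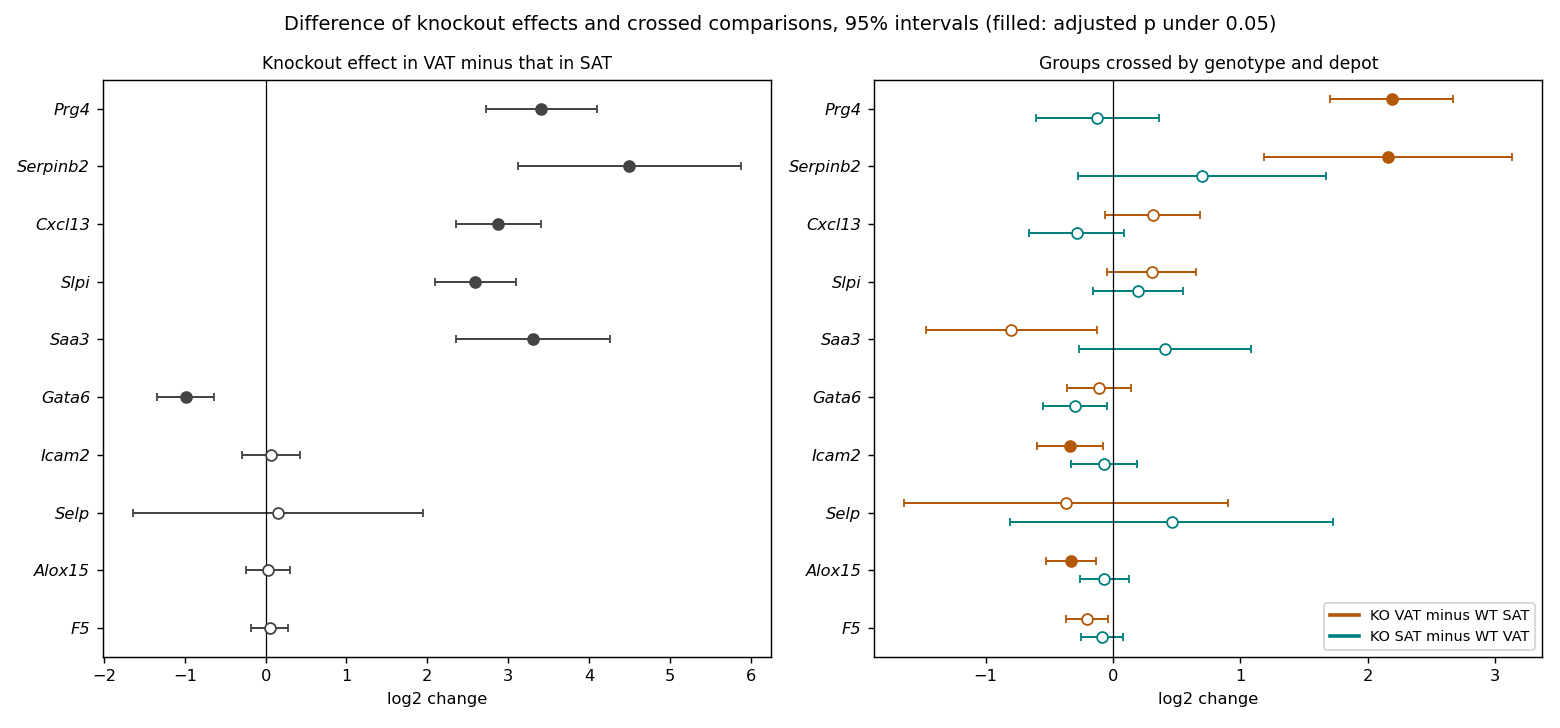
Log2 changes (x axis) of the 10 genes (y axis) with 95% intervals, the difference of knockout effects (VAT minus SAT) on the left and the pairs that cross genotype and depot on the right; filled points have an adjusted p under 0.05. Prg4, Serpinb2, Cxcl13, Slpi and Saa3 lie between 2.60 and 4.50 on the left and Gata6 at -0.99, while on the right Prg4 and Serpinb2 lie at 2.19 and 2.16 in KO VAT minus WT SAT.

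Correlations between the 10 genes changed once group and day were removed. Those over the 16 arrays share the group structure, so they are given also after removal, as descriptions. The values furthest from 0 after removal were 0.714 for Cxcl13 and Alox15, -0.714 for Serpinb2 and F5, 0.684 for Selp and F5, and 0.675 for Cxcl13 and Icam2, where Alox15 and F5 were below background. Prg4 and Serpinb2 correlated at r = 0.921 over 16 arrays and at 0.642 after removal. Cxcl13 and Saa3 correlated at 0.808 and at 0.624, but Cxcl13 and Slpi at 0.910 and at 0.291. Prg4 and Cxcl13 had r = 0.728 over all arrays and -0.575 after removal, so pools of 1 group with more Prg4 tended to have less Cxcl13. Gata6 and Slpi had r = -0.809 and -0.371.

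Outside the set, the genes whose values over the 16 arrays were most like Prg4 were Kif21a (r = 0.972), Pafah2 (0.969) and Kcnq5 (0.951). Those most like Serpinb2 were Nqo1 (0.970), Stambpl1 (0.959) and Ddah1 (0.957). Akr1c18 and Rpl39l were among the 3 most like genes of both Cxcl13 (0.921 and 0.939) and Slpi (0.955 and 0.944), beside Slc6a19 for Cxcl13 (0.913) and Itgb7 for Slpi (0.956). Akr1c18, a steroid dehydrogenase of the aldo-keto reductase family, averaged 10.18 in KO VAT, 5.26 in KO SAT, 4.91 in WT VAT and 8.70 in WT SAT. Saa3 was most like Fcgr4 (0.899), followed by Tnnc2 (0.885) and Pvalb (0.879), genes of skeletal muscle, and Tnnc2 averaged 7.49 in KO VAT, 5.36 in KO SAT, 5.64 in WT VAT and 9.80 in WT SAT. The part of muscle RNA in the Saa3 values was not tested. For Gata6 the most like genes were C77080 (0.927), Phlda3 (0.924) and Vcan (0.897). Icam2 was most like Pgm5 (0.947), Ccn6 (0.934) and Psors1c2 (0.919), and Alox15 most like St6gal1 (0.907), 1700016H13Rik (0.904) and Gipr (0.903).

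Of 15 other listed genes of large peritoneal macrophages, 12 were measured; 0 rose and 1 fell in KO VAT against KO SAT (Cd93, by 0.73 ± 0.19, limma adjusted p = 0.0464), 0 passed in WT VAT against WT SAT and 0 passed in the difference of knockout effects. Their median changes were 0.06, -0.02 and 0.11. Of the 12, 0 passed in KO VAT against WT VAT or in KO SAT against WT VAT, while 2 rose and 2 fell in KO SAT against WT SAT, and 2 rose and 1 fell in KO VAT against WT SAT, the comparisons with the highest shares over all genes. Timd4, the phosphatidylserine receptor of resident macrophages, averaged 3.595 in KO VAT, 3.66 in KO SAT, 3.74 in WT VAT and 3.70 in WT SAT, and Vsig4, a complement receptor, 3.71 in KO VAT, 3.6002 in KO SAT, 3.70 in WT VAT and 3.79 in WT SAT. Neither was well above background, which also held for Alox15 and F5, so 4 markers of the population for which the 10 genes are named were not above background in any group mean. Others were: of the 12 measured genes, 6 were above background by their mean over the 16 arrays. Group means ran from 7.79 in WT SAT to 8.81 in KO VAT for Fn1, and from 7.19 in KO VAT to 7.92 in KO SAT for Cd93. Of 11 measured macrophage identity genes all were above background by their mean, and 0 rose and 5 fell in KO VAT against KO SAT, among them Cd68 (by 0.64), Cd14 (by 0.95) and Fcgr1 (by 0.69). In KO VAT against WT SAT, where Prg4 and Serpinb2 rose, 0 rose and 9 fell, with a median of -0.75. Over all genes 18.3% rose and 21% fell there, with a median of -0.08. The list had 0 that rose and 2 that fell both in KO VAT against WT VAT and in KO SAT against WT SAT. Over all genes 10.2% rose and 5.76% fell in the former, and 16.7% rose and 20% fell in the latter. Counts of the lists below should likewise be read beside the shares of all genes given above for each comparison. The summed level of the macrophage identity genes ran from 11.58 to 12.30 in KO VAT, 12.32 to 12.78 in KO SAT, 11.86 to 12.79 in WT VAT and 12.51 to 12.86 in WT SAT.

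The retinoic acid pathway, which maintains Gata6 in the cavity, had 14 of 16 listed genes measured. In KO VAT against KO SAT 2 rose and 1 fell, in WT VAT against WT SAT 1 rose and 0 fell, and in the difference of knockout effects 3 passed as positive and 1 as negative. Aldh1a2, which makes retinoic acid, fell by 1.36 ± 0.21 in KO VAT against KO SAT (limma adjusted p = 0.00136) and rose by 1.11 ± 0.21 in WT VAT against WT SAT (limma adjusted p = 0.0107), the order of Gata6. Aldh1a1, which also makes retinoic acid, had the opposite sign in the knockout: it rose by 0.96 ± 0.11 in KO VAT against KO SAT (limma adjusted p = 0.000106), at least 1.7-fold against the background level, and its wild-type change was 0.11 (limma adjusted p = 0.729) at values below background. Cyp26b1, which breaks retinoic acid down, rose by 1.49 ± 0.15 in KO VAT against KO SAT (limma adjusted p = 2.49e-05), and its wild-type change was -0.43 (limma adjusted p = 0.163).

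Markers of other cells were present and some moved with the 10 genes. The summed level of 9 B cell genes ran from 9.43 to 9.87 in KO VAT, 8.88 to 9.10 in KO SAT, 8.89 to 8.97 in WT VAT and 9.25 to 9.49 in WT SAT, the split seen for Cxcl13 and Slpi. Ebf1, the brightest of them, did not have this split. It averaged 8.71 in KO VAT, 7.84 in KO SAT, 7.30 in WT VAT and 7.49 in WT SAT. Pax5 was highest in WT VAT, at 6.05. Between KO VAT and KO SAT 1 of the 9 rose (Ebf1) and 0 fell. Between WT VAT and WT SAT 0 rose and 3 fell. In the difference of knockout effects 6 of the 9 passed as positive and 0 as negative, with a median of 1.01, although Ms4a1, the gene of CD20, was below background in every group mean. Mesothelial genes, which could bring Gata6 or Slpi, had 14 of 14 measured, and 6 of these were above background by their mean over 16 arrays. Msln and Wt1 were below background in every group mean, while Upk3b averaged 6.32 in KO VAT, 6.60 in KO SAT, 6.77 in WT VAT and 6.89 in WT SAT. In KO VAT against KO SAT 1 mesothelial gene rose (Krt19, by 0.48) and 2 fell (Krt8, by 0.97, and Krt18, by 1.25). Between WT VAT and WT SAT 0 of the mesothelial genes passed. Their summed level, most of it Pdpn, ran from 12.45 to 12.53 in KO VAT, 12.38 to 12.50 in KO SAT, 12.21 to 12.57 in WT VAT and 12.20 to 12.40 in WT SAT.

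Stromal genes ran from 12.69 to 12.85 in KO VAT, 12.42 to 12.78 in KO SAT, 12.09 to 13.14 in WT VAT and 11.66 to 12.12 in WT SAT in summed level, which is not the order of the 5 genes. For 14 endothelial genes the ranges were 9.22 to 10.35 in KO VAT, 10.38 to 10.76 in KO SAT, 9.32 to 10.42 in WT VAT and 9.40 to 9.69 in WT SAT. In the wild-type depots 6 of 12 stromal genes rose and 1 fell, and 0 of 14 endothelial genes passed. Between KO VAT and KO SAT 3 of the stromal genes rose and 0 fell. In the difference of knockout effects 2 passed as positive and 3 as negative. Unlike the summed level, Thy1, Col1a1 and Col3a1 of the 12 stromal genes had their highest group means in KO VAT and WT SAT. For the collagens the wild-type means were close, at 10.01 in WT SAT and 9.92 in WT VAT for Col1a1 and 9.05 and 9.03 for Col3a1. Dcn, Dpt, Lum, Mfap5, Fstl1, Postn and Pdgfra instead had their lowest group means in WT SAT. Thy1 rose by 0.81 ± 0.12 in KO VAT against KO SAT (limma adjusted p = 0.000976). It fell by 0.52 ± 0.12 in WT VAT against WT SAT (limma adjusted p = 0.0316). The part of B cells, stroma, endothelium or mesothelium in the values of the 10 genes was not tested.

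**Figure D4:**
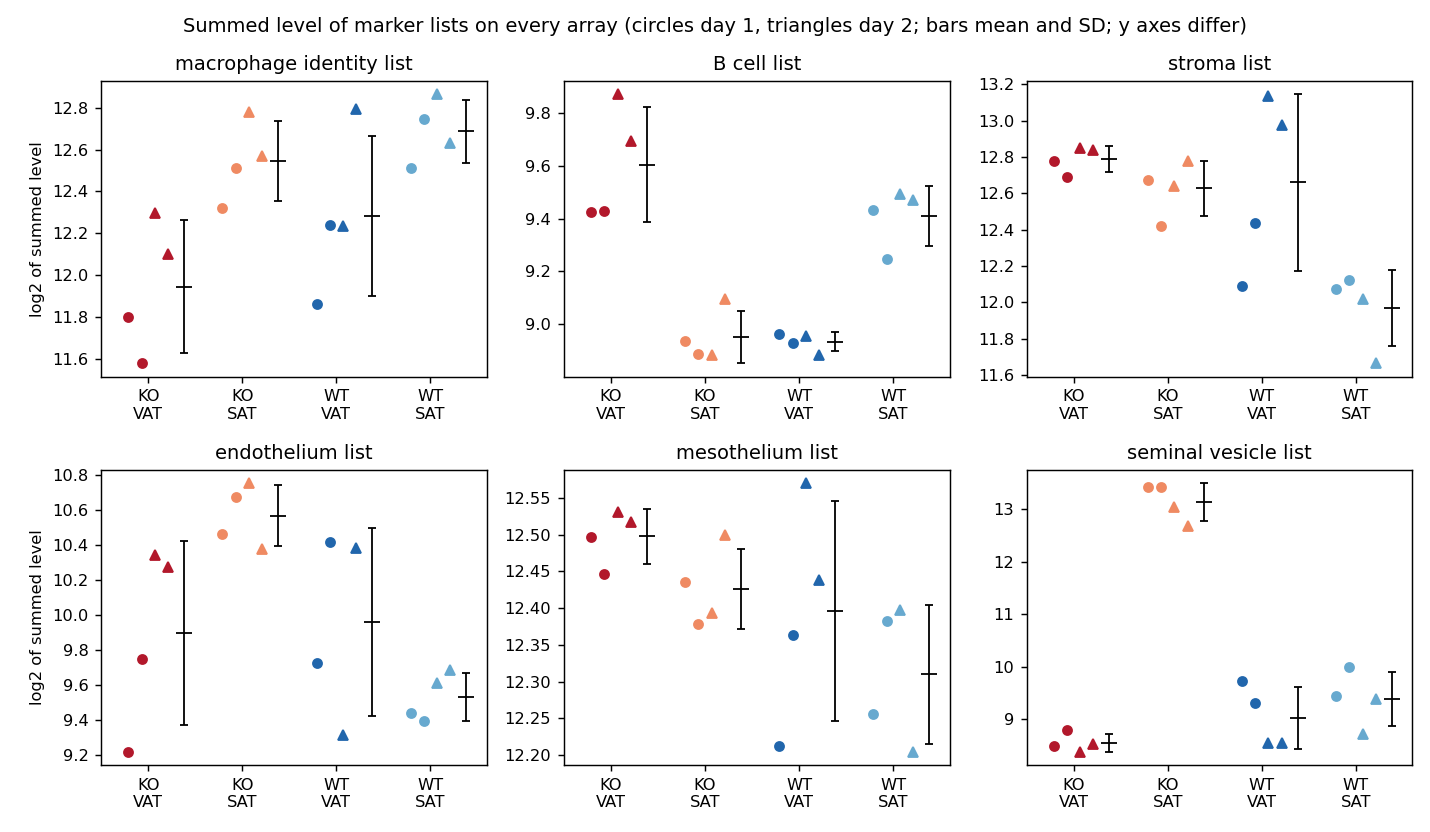
Log2 of the summed level (y axis, different for each panel) of 6 marker lists on every array by group (x axis), circles for day 1, triangles for day 2 and bars for mean and SD. The B cell list is highest in KO VAT and WT SAT, and the seminal vesicle list is above 12.6 in KO SAT and at or below 9.997 elsewhere.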

How the data were processed

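Affymetrix HT MG-430 PM arrays measured RNA of 16 macrophage pools, 4 per group. The authors deposited log2 values that they made by RMA with affy, per the submitters' processing notes, which give no versions; RMA as usually run makes probe intensities alike between arrays, so overall shifts may be removed, but the deposited summaries still differed, with interquartile ranges of 2.01 to 2.63 and medians of 4.83 to 5.02 per array. No raw intensities were used here. Of 45141 probe sets, 104 are controls, 28898 had 1 gene in the platform table and 551 several; 28689 were found in the RefSeq gene table (GRCm38.p6), which changed 0 symbols. Each of 17097 genes was taken by its brightest probe set on average, with no filter.

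Groups follow genotype and depot as labelled. One model was fitted to all 16 arrays with limma 3.58.1 (lmFit, eBayes; R 4.3.3) with group and day, and all 7 comparisons were drawn from it. Comparisons that share a group share its arrays and their errors. Errors of changes are standard errors of the fit, intervals are 95%. The model was tested on simulated data. Array data have no read depth, and 4 arrays a group limit the precision. An "at least" fold sets the dim group at the background level or at its own value, whichever is higher on each array.

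The members and gene lists were chosen with earlier results of these data known, so their counts are descriptions. The rule for named genes takes the 10 genes, Sucnr1, Lyz2, up to 3 members per list of smallest p that passed between depots, and the 3 genes most correlated with each of the 10 that passed anywhere. Cdh5, Timd4, Vsig4, Msln, Wt1, Pdpn, Ms4a1 and Svs4 fall outside this rule and were chosen after their values were seen. The same holds for Kdr, Vwf, Fn1, Upk3b, Pax5, Col1a1, Dcn, Dpt, Lum, Fstl1, Postn, Pdgfra, Svs5 and Svs6. Of the remaining lists, between KO VAT and KO SAT the neutrophil list had 1 of 11 that rose and 0 that fell, the small peritoneal macrophage list 0 and 2 of 8 (H2-Eb1 and Retnla), the platelet list 0 and 0 of 9, and the eosinophil list 0 and 0 of 5. Of the platelet genes Pf4 fell by 0.49 in WT VAT against WT SAT.

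Pool numbers were checked as pairs: after group and day were removed, arrays of 1 number had median correlations between -0.117 and -0.102, and the labels do not say that they share animals. As alternatives the day term was dropped, the days were fitted separately, the pool number replaced day as a replicate block, the compared groups were fitted alone, the lowest 40% of genes by mean were removed, probe sets were averaged, values were quantile normalized, the interquartile range of each array was added to the model, and single arrays were omitted.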

Additional observations from a re-analysis of the deposited data

Results flagged for a closer look

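In 152 gene and group combinations looked at, 8 arrays stood apart from the other 3 of their group, where chance gives about 1 in 20. Among the 10 genes these were KO SAT pool 2 for Serpinb2 at 4.71, KO SAT pool 3 for Slpi at 8.48 and WT VAT pool 2 for Selp at 8.07. KO VAT pool 1 for Selp, at 4.96, fell just short of the same critical value for the gap to the nearest array as a share of the range of the group. Among the list genes they were WT VAT pool 3 for Krt8 at 5.17 and for Mmp8 at 4.13, KO VAT pool 2 at 8.92 and WT SAT pool 4 at 6.80 for Mfap5, and WT SAT pool 2 for Svs2 at 4.65.

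The knockout effect differed between VAT and SAT by the test of the difference itself for 24 of 38 genes looked at, which are the 10, Sucnr1, Lyz2 and the list genes named for having passed between depots. Over all genes 722 passed, 2.1% as positive and 2.12% as negative. The list genes were named by depot changes in the same fit, and the difference is made of those changes. The 24 of 38 is therefore a description and not to be weighed against the share of all genes. Of the 24, 6 are described above: Prg4 (3.41), Serpinb2 (4.50), Cxcl13 (2.88), Slpi (2.60), Saa3 (3.31) and Gata6 (-0.99). Of macrophage genes, the folate receptor gene Folr2 had 1.77 and the class II gene H2-Eb1 had -1.34. Retinoic acid genes were Cyp26b1 (1.92), Aldh1a1 (0.85) and Aldh1a2 (-2.47). B cell genes were Ebf1 (1.06), Blk (1.46) and Cd79a (1.73), and neutrophil genes Mmp8 (1.13) and S100a8 (1.30). Stromal genes went both ways, with Thy1 at 1.32, Col3a1 at 1.20 and Mfap5 at -2.21. Krt18 had -1.36 and endothelial Tie1 had -1.07. The seminal vesicle genes Svs3a (-5.95), Svs3b (-4.18) and Svs2 (-5.91) had the most negative values of these 24.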

How the results depend on the processing

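Of 70 changes of single genes, 28 passed, and 0 of these turned direction under any alternative. A turn was not possible with no day term, pool number as a block, the compared groups alone or dim genes removed. These settings leave the change itself as it was and alter only its error or adjusted p. Of 67 turned values 0 had an adjusted p under 0.05. With pool number as a replicate block, 6 of the 10 genes passed in the difference of knockout effects and 0 in KO SAT against WT VAT, as without it, and the call on Icam2 in KO VAT against WT SAT (adjusted p = 0.0547) was the one lost among the 10. All-gene counts moved more. With no day term 422 genes passed in KO VAT against KO SAT, 212 in WT VAT against WT SAT, 3563 in KO SAT against WT SAT, 986 in KO VAT against WT VAT, 51 in KO SAT against WT VAT, 4426 in KO VAT against WT SAT and 455 in the difference of knockout effects, beside 738, 486, 6279, 2724, 1178, 6717 and 722 in the same order; with the block, 645 passed in KO SAT against WT VAT. With the compared groups alone 2047, 60, 1238 and 205 passed in KO VAT against KO SAT, WT VAT against WT SAT, KO VAT against WT VAT and KO SAT against WT VAT, and 1 of the 10 passed in WT VAT against WT SAT. Removing dim genes left 4047 in KO SAT against WT SAT, and quantile normalization gave 1116 in WT VAT against WT SAT. With array spread as a term the counts were 1968, 1502, 1308, 656, 1859 and 1694 in the order above without KO VAT against WT VAT, and 2 of the 10 passed in KO VAT against WT SAT. Day 1 alone gave 262, 199, 582, 5376, 4017, 1702 and 330, with 2 of the 10 passing between the wild-type depots, 2 in KO SAT against WT SAT, 1 in KO SAT against WT VAT and 4 in the difference of knockout effects; day 2 alone gave 199, 4222 and 331 in KO VAT against KO SAT, WT VAT against WT SAT and KO VAT against WT VAT, 18 in KO SAT against WT VAT and 1904 in the difference. Single arrays left out gave 461 to 1054, 231 to 1711, 3071 to 7960, 1115 to 4007, 177 to 3388, 3851 to 8180 and 546 to 1310. The values that turned belong to uncalled changes. With array spread as a term they were, in KO SAT against WT SAT, 0.13 for Icam2, 1.20 for Selp and 0.0085 for F5; in KO VAT against WT VAT 0.0514 for Icam2; in KO SAT against WT VAT -0.14 for Serpinb2, 0.0588 for Cxcl13, 0.18 for Icam2, 0.0392 for Alox15 and 0.0347 for F5; in KO VAT against WT SAT 0.0749 for Saa3 and 0.77 for Selp; and in the difference -0.078 for Icam2, -0.33 for Selp, -0.0293 for Alox15 and -0.0203 for F5. On day 1 they were, between the wild-type depots, 0.11 for Icam2, 0.28 for Selp, 0.0427 for Alox15 and 0.0143 for F5; 0.81 for Selp in KO SAT against WT SAT; -0.90 for Selp in KO VAT against WT VAT; 0.0923 for Prg4 in KO SAT against WT VAT; and -0.15 for Icam2, -1.70 for Selp, -0.21 for Alox15 and -0.12 for F5 in the difference. On day 2 they were 0.755 for Selp and 0.0426 for F5 in KO VAT against KO SAT, 0.003 for Alox15 in KO VAT against WT VAT, and 0.0255 for Cxcl13, 0.14 for Icam2 and 0.0678 for Alox15 in KO SAT against WT VAT. The mean of probe sets gave Selp 0.0485 in KO VAT against KO SAT, 0.25 in KO SAT against WT SAT and 0.30 in KO VAT against WT SAT. Quantile normalization gave -0.0796 for Selp in KO VAT against WT VAT, 0.0007 for Prg4, -0.0696 for Slpi, 0.0533 for Alox15 and 0.0277 for F5 in KO SAT against WT VAT, and -0.0338 for Alox15 and -0.0099 for F5 in the difference. With 1 array left out, Selp ran from -0.70 to 0.46 in KO VAT against KO SAT, -0.40 to 0.18 in KO SAT against WT SAT, -0.24 to 0.92 in KO VAT against WT VAT, -0.73 to 0.42 in KO VAT against WT SAT and -0.20 to 0.95 in the difference; F5 from -0.0646 to 0.0194 in KO VAT against KO SAT; Icam2 from -0.13 to 0.014 and Prg4 from -0.23 to 0.0165 in KO SAT against WT VAT; and Icam2 from -0.0328 to 0.16 and Alox15 from -0.0231 to 0.09 in the difference. The causes were not tested. The labelled depots, the unstated number of animals per pool and values near background limit what these arrays show.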
